A study of Mus musculus with 6 samples.

Results

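The genes described are the integrin subunits of smooth muscle Itga1, Itga5, Itga7, Itga8, Itga9, Itga11, Itgav, Itgb1, Itgb3 and Itgb5, chosen by symbol from the table of expression values. They are 10 of the 18112 genes in the table. Vascular smooth muscle cells (VSMCs) grown in primary culture from the mouse aorta were sequenced in 3 Smyd2 fl/fl and 3 Smyd2 SMC-/- libraries, to compare RNA levels with and without the lysine methyltransferase gene Smyd2. Values are FPKM, the fragments of a gene scaled by transcript length and library depth. All mice were on the C57BL/6 strain and carried Smyd2 alleles with loxP sites around exon 2, and the study's methods give an age of 8 to 10 weeks. The Smyd2 SMC-/- mice also carried the Tagln-Cre transgene, and their Smyd2 fl/fl littermates served as controls, so no group had an unmodified Smyd2 gene or Cre alone. The promoter of this transgene is also active outside smooth muscle. The labels give cells at passage 6 in medium with 10% FBS, while the methods give passage 4 and overnight starvation. Nothing in these sources says that each library came from a separate animal, so p-values measure only the spread between these libraries, which may be technical.

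Integrins are heterodimers of an alpha and a beta subunit that hold cells to the extracellular matrix and join it, through talin, kindlin and the integrin-linked kinase complex, to actin. The beta 1 subunit pairs with many alpha subunits, and the alpha v subunit pairs with several beta subunits. In the vessel wall, integrins carry force between contractile smooth muscle cells and matrix, and they take part in the migration of these cells.

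The depth was worked out from the spacing of low FPKM values. In Smyd2 fl/fl, replicate 1 held about 18050000 fragments, replicate 2 held 19650000 and replicate 3 held 19400000. In Smyd2 SMC-/-, replicate 1 held about 16700000 fragments, replicate 2 held 19050000 and replicate 3 held 18900000. The fit is loose, with 61.0% to 64.5% of low values falling at a whole fragment number to within 0.15. With other fragment lengths and gene selections close to those used, the estimate for Smyd2 SMC-/- replicate 1 ran from 16050000 to 17750000 fragments. For Itgb3, 1 fragment was worth between 0.0089 and 0.0104 FPKM, which is the step between possible values. It measures neither the counting error nor the spread between libraries.

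Smyd2, the targeted gene, was read first. It stood at 7.87, 3.1 and 3 FPKM in the Smyd2 fl/fl libraries and at 1.67, 0.4 and 0.8 FPKM in the Smyd2 SMC-/- libraries, in the order of replicates 1, 2 and 3 used throughout. The groups did not overlap, with the Smyd2 SMC-/- values lower. The log2 fold change was -1.48 (SE 0.39), with an adjusted p of 0.105 by limma without a replicate block and 0.0189 with it. Replicates 2 and 3 alone gave -1.35 (limma adjusted p of 0.00126). The values cover the whole gene, and exon 2 was not measured alone. Here and below a log2 fold change is Smyd2 SMC-/- minus Smyd2 fl/fl on log2(FPKM + 1), which understates the change of genes at low levels.

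Replicate 1 of both groups stood apart from the other libraries. On the first principal component, which held 50.2% of the variance, replicate 1 lay at -58.6 for Smyd2 fl/fl and -25.4 for Smyd2 SMC-/-, and replicates 2 and 3 lay at 3.11 and 2.74 for Smyd2 fl/fl and at 39.1 and 39.1 for Smyd2 SMC-/-. The fold changes are therefore given for all 6 libraries, with the replicate number as a block where this changes the call, and for replicates 2 and 3 alone.

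The smooth muscle label was checked against marker genes. Acta2, the smooth muscle actin, stood at 761, 682 and 683 FPKM in Smyd2 fl/fl and at 201, 268 and 262 FPKM in Smyd2 SMC-/- libraries, and it fell by 1.55 on the log2 scale (adjusted p of 0.00803 by limma), and by 1.36 in replicates 2 and 3 alone (adjusted p of 0.000241). Of the other 5 tested markers, limma without the block called 0, and with the block Cald1, which encodes caldesmon, was called lower (log2 fold change of -0.58, adjusted p of 0.0757 without the block and 0.0488 with it). Over all 6 libraries 5 of the 6 tested markers had a negative log2 fold change. It was -0.92 for Tagln, -0.91 for Cnn1 and -0.05 for Smtn (limma adjusted p of 0.496, 0.399 and 0.900). Lmod1, which encodes leiomodin, had one of 0.24 (limma adjusted p of 0.82). The replicate 1 difference was -2.60 for Tagln and -2.57 for Cnn1. In replicates 2 and 3 alone the directions differed. There Lmod1 was called higher (0.83, limma adjusted p of 0.00335) and Cald1 lower (-0.46, limma adjusted p of 0.0260). Tagln and Cnn1 had log2 fold changes of -0.08 and -0.07 in these replicates. The 9 smooth muscle markers, led by Acta2, summed to 1419, 1226 and 1242 FPKM in Smyd2 fl/fl. In Smyd2 SMC-/- libraries they summed to 542, 719 and 692 FPKM. Of these 9 genes, 3 had a mean under 0.5 FPKM, namely Myh11, the smooth muscle myosin heavy chain, Myocd, the SRF coactivator myocardin, and Des, which encodes desmin. Per the methods, the endothelium and the adventitial layer were removed before culture, and each batch of cells was stained for smooth muscle actin to check purity. Fibroblast and adventitial markers were also present. Their 7 genes summed to 301, 918 and 784 FPKM in Smyd2 fl/fl and to 81.1, 571 and 516 FPKM in Smyd2 SMC-/- libraries, with 0 under 0.5 FPKM. Dcn had the highest mean over the 6 libraries, while Dpt was the highest in Smyd2 fl/fl replicate 1 and Ly6a in Smyd2 fl/fl replicates 2 and 3 and in Smyd2 SMC-/- replicate 1. Of the 7 genes, 5 had a negative log2 fold change. Limma called 1 lower and 0 higher without the block (of all tested genes 1.21% and 1.23%), 3 lower (Dpt, Cd34 and Ly6a) and 0 higher with it (5.72% and 4.72%), and 5 lower and 1 higher in replicates 2 and 3 alone (17.2% and 11.9%). Dpt, which encodes the matrix protein dermatopontin, fell by 5.28 on the log2 scale (adjusted p of 0.00417 by limma), and by 5.38 in replicates 2 and 3 alone (adjusted p of 1.1e-05). Cd34 had a log2 fold change of -2.85 and Ly6a of -1.09 (limma adjusted p of 0.0669 and 0.552 without the block, 0.0269 and 0.0404 with it), or -2.26 and -1.37 in replicates 2 and 3 alone. Pdgfra had one of -1.66 and Pi16 of -1.32, which limma did not call with or without the block. In replicates 2 and 3 alone both were called lower, at -2.21 and -1.62 (limma adjusted p of 0.00012 and 0.0127). The 2 others were above 0. Dcn, which encodes decorin, had a log2 fold change of 0.53 (limma adjusted p of 0.890) with all 3 same-numbered pairs above 0, and 0.37 in replicates 2 and 3 alone (limma adjusted p of 0.0791). Lum, which encodes lumican, had one of 1.82 (limma adjusted p of 0.342), and of 2.57 in replicates 2 and 3 alone (limma adjusted p of 7.4e-05). The 6 mesothelial and epithelial markers, led by Krt19, summed to 49.4, 87.7 and 82.0 FPKM in Smyd2 fl/fl and to 11.6, 37.0 and 21.1 FPKM in Smyd2 SMC-/- libraries, and 3 of them were under 0.5 FPKM. Krt19, which encodes a keratin, fell by 2.10 on the log2 scale (adjusted p of 0.0317 by limma), with a value of -1.99 in replicates 2 and 3 alone (adjusted p of 0.0494). Wt1, a transcription factor gene of the mesothelium, went the other way, with a log2 fold change of 0.81 (limma adjusted p of 0.369 without the block and 0.0330 with it, and 0.00429 in replicates 2 and 3 alone). Msln had a log2 fold change of -0.91 (limma adjusted p of 0.748), or -1.46 in replicates 2 and 3 alone (limma adjusted p of 0.000965). The 7 macrophage and leukocyte markers, led by Cd14, summed to 42.2, 28.1 and 24.2 FPKM in Smyd2 fl/fl and to 42.3, 18.5 and 22.5 FPKM in Smyd2 SMC-/- libraries, with the defining marker Ptprc at 0.02 FPKM or less in each library. Cd14 had a log2 fold change of -0.40 (limma adjusted p of 0.693). Csf1r, a receptor gene of macrophages, stood at 0.58, 0.53 and 0.48 FPKM in Smyd2 fl/fl and at 1.66, 1.42 and 1.14 FPKM in Smyd2 SMC-/- libraries, with no overlap and a log2 fold change of 0.65 (limma adjusted p of 0.102), or 0.60 in replicates 2 and 3 alone (limma adjusted p of 0.0192). The 7 endothelial markers summed to 1.42, 1.83 and 2.05 FPKM in Smyd2 fl/fl and to 1.75, 5.41 and 2.99 FPKM in Smyd2 SMC-/- libraries, and 6 had a mean under 0.5 FPKM. Pecam1 was the highest in each Smyd2 fl/fl library, at 0.56, 0.88 and 0.92 FPKM, and stood at 0.12, 0.18 and 0 FPKM in Smyd2 SMC-/- libraries. Kdr was the highest in each Smyd2 SMC-/- library, at 0.96, 5.15 and 2.96 FPKM, and stood at 0.47, 0.58 and 0.84 FPKM in Smyd2 fl/fl. Neither gene overlapped between the groups. Pecam1 was under the filter and was not tested, and Kdr had a log2 fold change of 1.16 (limma adjusted p of 0.186), or 1.53 in replicates 2 and 3 alone (limma adjusted p of 0.00260). The 4 glial markers, with S100b the highest on average, summed to 1.28, 2.38 and 1.81 FPKM in Smyd2 fl/fl and to 2.34, 13.3 and 8.49 FPKM in Smyd2 SMC-/- libraries, with Sox10 at 0.02 FPKM or less. S100b had a log2 fold change of 1.71 (limma adjusted p of 0.236), or 2.29 in replicates 2 and 3 alone (limma adjusted p of 0.000832). The 2 skeletal muscle markers analysed, with Des the highest on average, summed to between 0.01 and 0.22 FPKM. The part of these marker levels in the integrin results was not tested. In bulk RNA, fewer cells of a type and less RNA per cell cannot be told apart.

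The integrin subunits spanned a wide range of levels, and 8 of the 10 had a mean of at least 0.5 FPKM and were tested. Itgb1 was the most abundant in each of the 6 libraries. Itga8 and Itga9 were under this mean, so the label smooth muscle integrins holds a subunit, Itga8, that is known from contractile smooth muscle and was close to 0 in these cells.

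**Figure D1:**
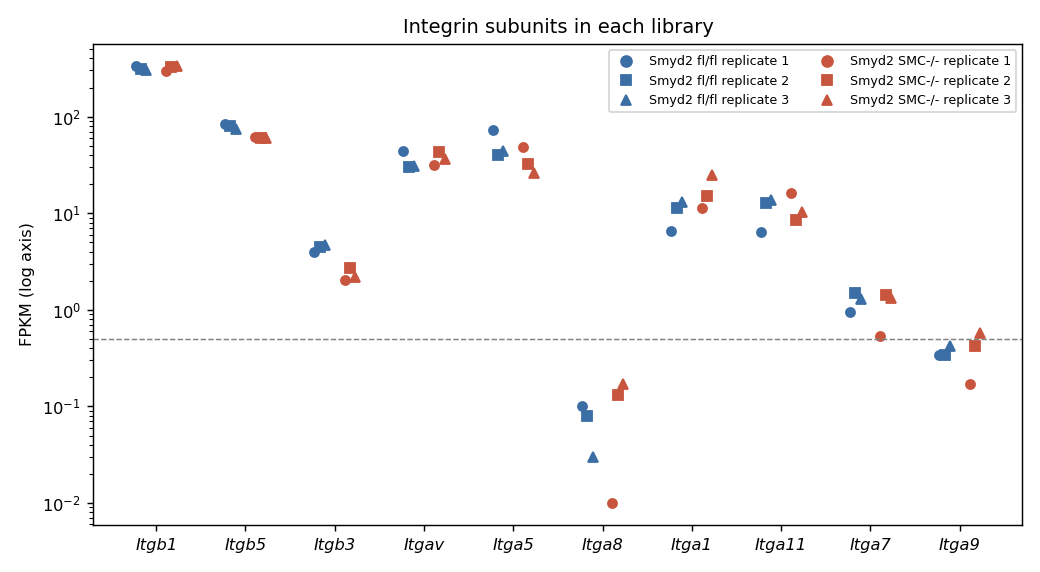
FPKM of each integrin subunit (log axis) in the 6 libraries, with Smyd2 fl/fl in blue, Smyd2 SMC-/- in red, the replicate number by symbol shape and the filter of 0.5 FPKM as a dashed line. Itgb3 and Itgb5 are lower in every Smyd2 SMC-/- library than in every Smyd2 fl/fl library, and the groups of the other 8 subunits overlap.

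Of the 8 tested subunits, limma without a block called 0 lower and 0 higher (adjusted p under 0.05), where 1.21% of the 12565 tested genes were called lower and 1.23% higher. Before adjustment, 2 subunits were lower and 0 higher at p under 0.05, where 11.2% of all tested genes were lower and 9.16% higher. With the replicate block, 1 subunit (Itgb3) was called lower, where 5.72% of all tested genes were, and 1 (Itga1) higher, where 4.72% were. In replicates 2 and 3 alone, 4 were called lower (Itga5, Itga11, Itgb3 and Itgb5), where 17.2% of all tested genes were, and 1 higher (Itgav), where 11.9% were. Deviations from the group means correlated at 0.460 and 0.527 within the pairs of replicates 2 and 3, and at 0.461 and 0.439 across these 2 numbers, and a block for replicate 1 against replicates 2 and 3 was added after seeing the data. With it 3 subunits were called lower (Itga5, Itgb3 and Itgb5), where 11.1% of all tested genes were, and 1 higher (Itga1, adjusted p of 0.04998), where 9.17% were. The groups did not overlap for 2 subunits that were lower, where this held for 15.0% of all tested genes, and for 0 that were higher, where it held for 13.1%. The median log2 fold change of the 8 subunits was -0.04, and that of all tested genes was -0.02.

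**Figure D2:**
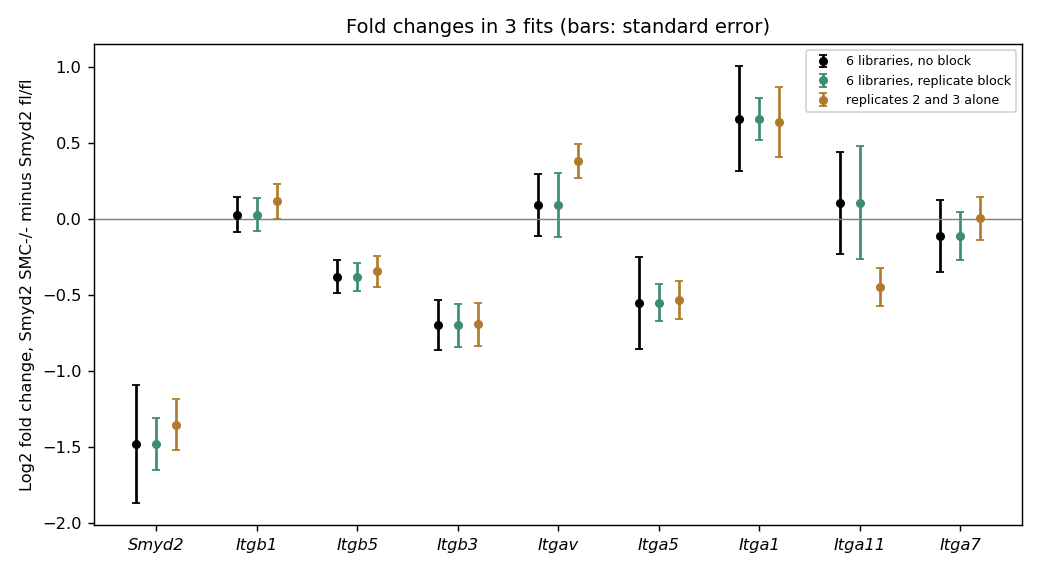
Log2 fold change of Smyd2 and the 8 tested subunits with its standard error from all 6 libraries without a block (black), with the replicate block (green) and from replicates 2 and 3 alone (brown). Itgb3, Itgb5 and Itga5 lie below 0 and Itga1 above 0 in each of the 3 fits, and Itga11 changes sign without replicate 1.

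Itgb1 encodes the beta 1 subunit, the partner of the alpha 1, alpha 5, alpha 7, alpha 8, alpha 9 and alpha 11 subunits. It stood at 332, 309 and 302 FPKM in Smyd2 fl/fl (315 ± 15.8, SD, n = 3) and at 299, 328 and 335 FPKM in Smyd2 SMC-/- libraries (321 ± 18.8, SD, n = 3). The groups overlapped, with a log2 fold change of 0.03 (SE 0.12; limma adjusted p of 0.932). With replicates 2 and 3 alone it was 0.12 (limma adjusted p of 0.482).

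Itgb3 encodes the beta 3 subunit, which with alpha v forms a receptor for vitronectin and osteopontin. It stood at 3.94, 4.44 and 4.69 FPKM in Smyd2 fl/fl (4.36 ± 0.382, SD, n = 3) and at 2.02, 2.73 and 2.18 FPKM in Smyd2 SMC-/- libraries (2.31 ± 0.372, SD, n = 3). All 3 Smyd2 SMC-/- libraries were below all 3 Smyd2 fl/fl libraries, and the ratio of the means was 0.530. The log2 fold change was -0.70 (SE 0.16), with a limma adjusted p of 0.0793 without the block and 0.0456 with it. The exact permutation test gave p = 0.1 (two-sided), the smallest that 3 libraries against 3 allow. In replicates 2 and 3 alone the log2 fold change was -0.69 (limma adjusted p of 0.0108). Among genes passing a minimum set at 1 FPKM, the most like Itgb3 in log2 values were Raet1e (Pearson r of 0.993) and St3gal2 (r of 0.993). The same minimum held for Itgb5 and Itga1, and these are descriptions over 6 libraries that share 2 groups.

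Itgb5 encodes the beta 5 subunit, another partner of alpha v and a vitronectin receptor. It stood at 84.5, 79.5 and 74.2 FPKM in Smyd2 fl/fl (79.4 ± 5.15, SD, n = 3) and at 61.6, 60.2 and 60.4 FPKM in Smyd2 SMC-/- libraries (60.7 ± 0.793, SD, n = 3). The groups did not overlap, and the ratio of the means was 0.765. The log2 fold change was -0.38 (SE 0.11), with a limma adjusted p of 0.127 without the block and 0.0636 with it. Replicates 2 and 3 alone gave -0.34 (limma adjusted p of 0.0371). The most similar genes over the 6 libraries were Tmem35a (r of 0.995) and Klhl22 (r of 0.995).

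Among the beta subunits, Itgb1 made up 79.0%, 78.7% and 79.3% of the summed FPKM in Smyd2 fl/fl, against 82.5%, 83.9% and 84.3% in Smyd2 SMC-/- libraries. Itgb5 made up 20.1%, 20.2% and 19.5% in Smyd2 fl/fl, against 17.0%, 15.4% and 15.2% in Smyd2 SMC-/- libraries. Neither of these shares overlapped between the groups. They are not separate results, because Itgb3 held the small rest and a lower Itgb5 share brings a higher Itgb1 share. The Itgb1 FPKM itself overlapped between the groups. FPKM is scaled by length, so the shares are those of RNA molecules as far as the transcript lengths used by the authors hold. They say nothing of protein.

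Itgav encodes the alpha v subunit, which binds the RGD sequence of vitronectin and fibronectin. It stood at 44.5, 29.8 and 30.5 FPKM in Smyd2 fl/fl (34.9 ± 8.30, SD, n = 3) and at 31.3, 43.2 and 36.3 FPKM in Smyd2 SMC-/- libraries (36.9 ± 5.98, SD, n = 3). Within same-numbered libraries the log2 difference was -0.49 for replicate 1, 0.52 for replicate 2 and 0.24 for replicate 3, so replicate 1 went the other way. Over all 6 libraries the log2 fold change was 0.09 (SE 0.20; limma adjusted p of 0.857), and in replicates 2 and 3 alone it was 0.38 (limma adjusted p of 0.0393).

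Itga5 encodes the alpha 5 subunit, which with beta 1 forms the main fibronectin receptor. It stood at 72.6, 39.9 and 44.5 FPKM in Smyd2 fl/fl (52.4 ± 17.7, SD, n = 3) and at 48.2, 32.0 and 26.0 FPKM in Smyd2 SMC-/- libraries (35.4 ± 11.5, SD, n = 3). The groups overlapped, while the Smyd2 SMC-/- library was lower in all 3 same-numbered pairs. The log2 fold change was -0.55 (SE 0.30; limma adjusted p of 0.368), and in replicates 2 and 3 alone it was -0.53 (limma adjusted p of 0.0177).

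**Figure D3:**
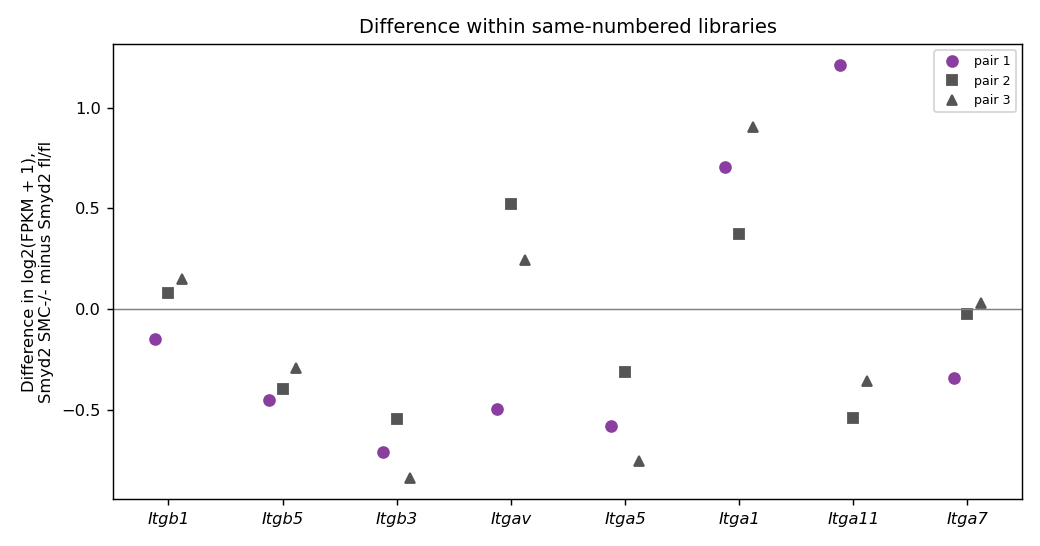
Difference in log2(FPKM + 1) between the Smyd2 SMC-/- and the Smyd2 fl/fl library of the same replicate number for the 8 tested subunits, with replicate 1 as purple circles. All 3 pairs lie below 0 for Itgb3, Itgb5 and Itga5 and above 0 for Itga1, while replicate 1 has the opposite sign to replicates 2 and 3 for Itgb1, Itgav and Itga11.

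Itga8 encodes the alpha 8 subunit, which with beta 1 binds nephronectin and fibronectin. It stood at 0.10, 0.08 and 0.03 FPKM in Smyd2 fl/fl and at 0.01, 0.13 and 0.17 FPKM in Smyd2 SMC-/- libraries. This amounts to roughly 10, 9 and 3 fragments in Smyd2 fl/fl, against 1, 14 and 19 in Smyd2 SMC-/- libraries. The groups overlapped. In the fit without the filter the log2 fold change of Itga8 was 0.04 (limma adjusted p of 0.782). What size of change could be detected at so few fragments was not tested.

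Itga1 encodes the alpha 1 subunit, a collagen and laminin receptor with beta 1. It stood at 6.50, 11.4 and 12.95 FPKM in Smyd2 fl/fl (10.3 ± 3.37, SD, n = 3) and at 11.2, 15.1 and 25.1 FPKM in Smyd2 SMC-/- libraries (17.1 ± 7.16, SD, n = 3). The groups overlapped, and the Smyd2 SMC-/- library was higher in all 3 same-numbered pairs. The log2 fold change was 0.66 (SE 0.35), with a limma adjusted p of 0.346 without the block and 0.0485 with it. Replicates 2 and 3 alone gave 0.64 (limma adjusted p of 0.0885). The most similar genes over the 6 libraries were D16Ertd472e (r of 0.994) and Dbt (r of 0.994).

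Itga11 encodes the alpha 11 subunit, a receptor for fibrillar collagen. It stood at 6.34, 12.8 and 13.6 FPKM in Smyd2 fl/fl (10.9 ± 3.99, SD, n = 3) and at 16.0, 8.5 and 10.4 FPKM in Smyd2 SMC-/- libraries (11.6 ± 3.92, SD, n = 3). The log2 difference was 1.21 in replicate 1, -0.54 in replicate 2 and -0.36 in replicate 3. Over all 6 libraries the log2 fold change was 0.11 (SE 0.33; limma adjusted p of 0.905), and in replicates 2 and 3 alone it was -0.45 (limma adjusted p of 0.0312).

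Itga7 encodes the alpha 7 subunit, a laminin receptor of muscle. It stood at 0.95, 1.48 and 1.29 FPKM in Smyd2 fl/fl and at 0.54, 1.44 and 1.34 FPKM in Smyd2 SMC-/- libraries. The groups overlapped, with a log2 fold change of -0.11 (SE 0.24; limma adjusted p of 0.848) and of 0.0039 in replicates 2 and 3 alone (limma adjusted p of 0.987). Itga9 encodes the alpha 9 subunit, which binds tenascin C, and stood at 0.34, 0.34 and 0.42 FPKM in Smyd2 fl/fl and at 0.17, 0.42 and 0.57 FPKM in Smyd2 SMC-/- libraries, which overlapped.

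Among the alpha subunits, Itga5 made up 55.3%, 41.6% and 43.1% of the summed FPKM in Smyd2 fl/fl, against 44.8%, 31.7% and 26.0% in Smyd2 SMC-/- libraries. Itgav made up 33.9%, 31.1% and 29.5% in Smyd2 fl/fl, against 29.1%, 42.9% and 36.3% in Smyd2 SMC-/- libraries. Itga1 made up 4.95%, 11.9% and 12.5% in Smyd2 fl/fl, against 10.4%, 15.0% and 25.1% in Smyd2 SMC-/- libraries. Itga5 led in every Smyd2 fl/fl library and in Smyd2 SMC-/- replicate 1, and Itgav led in Smyd2 SMC-/- replicates 2 and 3. The shares of these 3 subunits overlapped between the groups.

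**Figure D4:**
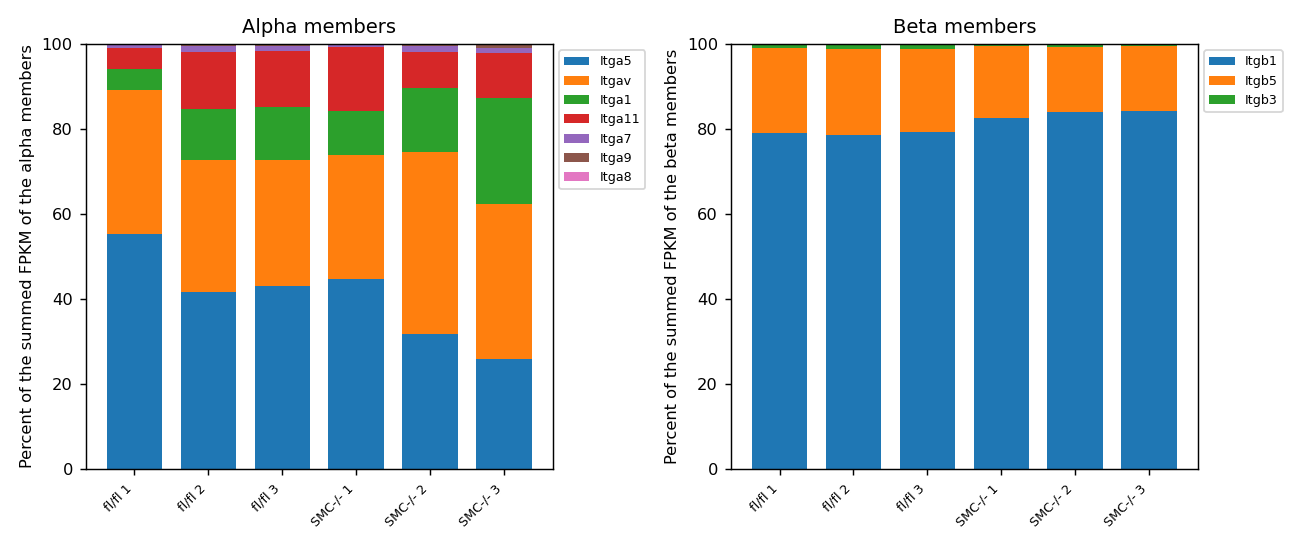
Share of each subunit, in percent, in the summed FPKM of the alpha members (left) and of the beta members (right) in each library. The Itgb5 share is between 19.5% and 20.2% in Smyd2 fl/fl and between 15.2% and 17.0% in Smyd2 SMC-/- libraries.

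Promoter windows from RefSeq (GRCm38.p6, 250 bases before to 50 after the start) matched 8 of the 10 subunits, and Itga7 and Itgb3 had no entry. Each window was searched on both strands for the CArG box, which binds SRF, for the SMAD core CAGAC, for the AP-1 sites TGACTCA and TGAGTCA and for the TEAD core GGAATG. These were held by 1.63%, 49.6%, 5.20% and 14.7% of all 32851 windows, in this order. Of the 8 subunits, 0 held a CArG box, 4 held CAGAC (Itga1, Itga5, Itga9 and Itgb1), 1 held an AP-1 site (Itga9, where it overlapped a CAGAC match) and 1 held GGAATG (Itgb1). The Itga9 window, chr9:118711442-118711741 on the plus strand, lies inside the gene as GENCODE M21 gives it on the same strand (chr9:118606690-118901003) and not at the start of that span, so the matches of Itga9 are not in the window at the gene's first base. The windows of Itga5 and Itgb5, which were lower in all 3 same-numbered pairs, and of Itga1, which was higher in all 3, are shown with the matches in capitals. They lie at chr15:103366742-103367041 (minus strand), chr16:33829415-33829714 (plus strand) and chr13:115101915-115102214 (minus strand), in this order, over the start of each gene. Itga5 holds 2 matches to CAGAC, Itga1 holds 1 and Itgb5 holds 0, and a match is a description of the letters only.
Itga5: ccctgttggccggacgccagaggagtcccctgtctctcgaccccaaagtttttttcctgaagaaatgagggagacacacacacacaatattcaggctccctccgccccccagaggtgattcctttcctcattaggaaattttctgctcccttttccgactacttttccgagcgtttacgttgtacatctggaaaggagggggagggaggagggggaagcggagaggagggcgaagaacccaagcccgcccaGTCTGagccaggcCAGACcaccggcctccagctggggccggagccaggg
Itgb5: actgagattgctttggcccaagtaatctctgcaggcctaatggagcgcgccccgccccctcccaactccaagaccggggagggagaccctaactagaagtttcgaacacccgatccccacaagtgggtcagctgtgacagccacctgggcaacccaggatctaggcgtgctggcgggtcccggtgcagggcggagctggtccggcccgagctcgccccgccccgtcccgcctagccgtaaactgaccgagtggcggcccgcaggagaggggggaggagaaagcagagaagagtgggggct
Itga1: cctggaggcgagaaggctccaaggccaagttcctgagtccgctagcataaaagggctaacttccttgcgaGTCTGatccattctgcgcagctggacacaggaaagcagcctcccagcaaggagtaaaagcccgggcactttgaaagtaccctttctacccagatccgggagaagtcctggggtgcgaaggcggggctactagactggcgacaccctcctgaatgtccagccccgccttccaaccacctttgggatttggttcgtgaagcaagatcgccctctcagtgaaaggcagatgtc

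The list of other integrin subunits had 15 genes in the table, 7 of them tested, and holds Itgbl1, which encodes a secreted integrin beta-like protein and not a subunit. It had 0 called in either direction by limma without the block (of all tested genes 1.21% lower and 1.23% higher), 2 higher and 0 lower at p under 0.05 before adjustment (9.16% and 11.2%), and a median log2 fold change of 0.30. Without Itgbl1 (log2 fold change of -0.25) the other 6 tested genes had a median of 0.46, with the same counts called. With the block 1 was called higher, where 4.72% of all tested genes were, and in replicates 2 and 3 alone 2 were, where 11.9% were. The highest mean over the 6 libraries was that of Itga3, a laminin receptor subunit, although Itgbl1 was higher in Smyd2 fl/fl replicate 3. Itga3 stood at 12.1, 10.4 and 9.26 FPKM in Smyd2 fl/fl and at 17.3, 20.7 and 18.9 FPKM in Smyd2 SMC-/- libraries. Every Smyd2 SMC-/- library lay above every Smyd2 fl/fl library. The log2 fold change was 0.79 (SE 0.15), with a limma adjusted p of 0.0507 without the block and 0.0357 with it, and it was 0.95 in replicates 2 and 3 alone (limma adjusted p of 0.00107).

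Of the 29 integrin ligands and matrix partners listed, 26 were tested, 1 was called lower and 0 higher by limma without the block (of all tested genes 1.21% and 1.23%). Before adjustment 3 were lower and 8 higher at p under 0.05, where 11.2% of all tested genes were lower and 9.16% higher, and the median log2 fold change was 0.36. Lama2, the alpha 2 chain of muscle laminin, stood at 11.3, 9.01 and 12.6 FPKM in Smyd2 fl/fl and at 0.09, 1.61 and 0.60 FPKM in Smyd2 SMC-/- libraries, and it fell by 2.84 on the log2 scale (SE 0.33; limma adjusted p of 0.0135), and by 2.51 in replicates 2 and 3 alone (limma adjusted p of 0.00122). With the block 1 was called lower and 7 higher, namely Spp1, Lama5, Lamb1, Fbn1, Ltbp1, Svep1 and Fn1, where 5.72% of all tested genes were lower and 4.72% higher. Lama5, another laminin alpha chain, stood at 3.81, 5.59 and 5.87 FPKM in Smyd2 fl/fl and at 11.4, 34.4 and 40.7 FPKM in Smyd2 SMC-/- libraries, with no overlap and a log2 fold change of 2.13 (limma adjusted p of 0.0683 without the block and 0.0210 with it). Replicates 2 and 3 alone gave 2.51 for Lama5 (limma adjusted p of 1.8e-05). Spp1, which encodes osteopontin, stood at 136, 12.6 and 9.35 FPKM in Smyd2 fl/fl and at 352, 31.4 and 24.8 FPKM in Smyd2 SMC-/- libraries. Replicate 1 was the highest of each group for Spp1, and the log2 fold change was 1.31 (limma adjusted p of 0.649 without the block and 0.00662 with it), or 1.28 in replicates 2 and 3 alone (limma adjusted p of 0.00180). Fn1, which encodes fibronectin, had the highest mean of the ligands, although Col1a1 and Col1a2 were higher in Smyd2 SMC-/- replicate 1 (1333 and 954 FPKM). It stood at 431, 1418 and 1809 FPKM in Smyd2 fl/fl and at 858, 3392 and 2540 FPKM in Smyd2 SMC-/- libraries. The groups overlapped for Fn1, and the log2 fold change was 0.91 (limma adjusted p of 0.532 without the block and 0.0411 with it), or 0.87 in replicates 2 and 3 alone (limma adjusted p of 0.0142). Over the list, replicates 2 and 3 alone called 4 ligands lower and 12 higher, where 17.2% of all tested genes were lower and 11.9% higher.

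The 37 adhesome genes listed encode adaptors, kinases and other proteins of integrin adhesions, among them membrane proteins such as Cd47. Of these genes, 34 were tested, with a median log2 fold change of -0.25. It was negative for 26 of the 34, against 52.0% of all tested genes, a share not matched for expression level. With TPM the median of all tested genes went from -0.02 to 0.10, and the adhesome median with TPM was not computed. By limma without the block 1 was called lower and 0 higher (of all tested genes 1.21% and 1.23%), and before adjustment 5 were lower and 1 higher at p under 0.05 (of all tested genes 11.2% and 9.16%). Fblim1, which encodes the filamin-binding protein migfilin, stood at 78.9, 66.4 and 77.3 FPKM in Smyd2 fl/fl and at 29.8, 32.2 and 38.1 FPKM in Smyd2 SMC-/- libraries, and it fell by 1.13 on the log2 scale (SE 0.14; limma adjusted p of 0.0166), and by 1.01 in replicates 2 and 3 alone (limma adjusted p of 0.00129). With the block 3 were called lower, namely Fblim1, Parvb and Cd47, and 0 higher, where 5.72% of all tested genes were lower and 4.72% higher. Parvb, a partner of integrin-linked kinase, stood at 25.0, 9.15 and 11.2 FPKM in Smyd2 fl/fl and at 8.81, 1.96 and 2.69 FPKM in Smyd2 SMC-/- libraries, with a log2 fold change of -1.64 (limma adjusted p of 0.163 without the block and 0.00963 with it), or -1.75 in replicates 2 and 3 alone (limma adjusted p of 0.000335). Cd47, a membrane protein that associates with alpha v beta 3, stood at 18.9, 42.3 and 45.6 FPKM in Smyd2 fl/fl and at 13.4, 22.9 and 25.6 FPKM in Smyd2 SMC-/- libraries, with a log2 fold change of -0.71 (limma adjusted p of 0.362 without the block and 0.0327 with it), or -0.83 in replicates 2 and 3 alone (limma adjusted p of 0.00137). Zyx, which encodes zyxin, was the most abundant gene of the list, at 588, 746 and 808 FPKM in Smyd2 fl/fl and at 501, 1255 and 1242 FPKM in Smyd2 SMC-/- libraries, which overlapped. Its log2 fold change was 0.38 (limma adjusted p of 0.637), with replicate 1 at -0.23 and replicates 2 and 3 at 0.75 and 0.62, and in replicates 2 and 3 alone it was called higher (0.69, limma adjusted p of 0.00739). Over the adhesome, replicates 2 and 3 alone called 8 genes lower and 5 higher, where 17.2% of all tested genes were lower and 11.9% higher. The summed smooth muscle markers, led by Acta2, were lower in every Smyd2 SMC-/- library than in every Smyd2 fl/fl library. Of the 6 tested markers, only Acta2 and Cald1 were lower without overlap, while Tagln, Cnn1, Smtn and Lmod1 overlapped. The part of the smooth muscle markers in the adhesome values was not tested.

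**Figure D5:**
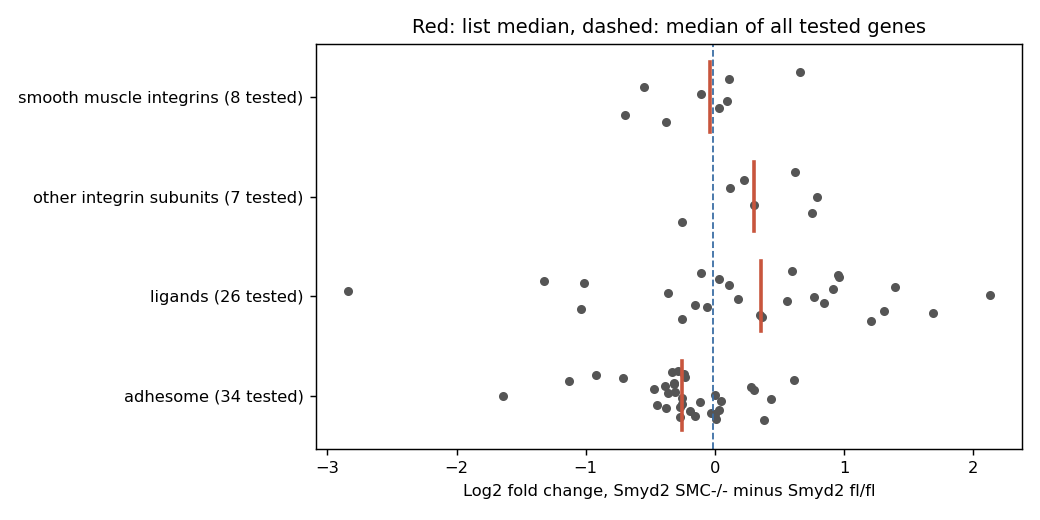
Log2 fold change of each tested gene of the smooth muscle integrins, the other integrin subunits, the ligands and the adhesome, with the list median in red and the median of all tested genes as a dashed line. The medians are -0.04, 0.30, 0.36 and -0.25, beside -0.02 for all tested genes.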

How the data were processed

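Per the methods, SOAPnuke was used to filter reads, HISAT and Bowtie2 to map them and RSEM to estimate expression. The authors deposited 1 FPKM value for each gene and library. Versions and the genome build are not given in the sources used here. The deposited FPKM were read as log2(FPKM + 1). A gene was kept where its 6 libraries averaged 0.5 FPKM or more (12565 genes), and Smyd2 SMC-/- was compared with Smyd2 fl/fl by limma 3.58.1 in R 4.3.3 (trend and robust settings), with Benjamini-Hochberg adjustment over all tested genes. The fit was tested on simulated data.

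Replicate numbers come from the sample titles. Deviations from the group means of same-numbered libraries correlated at 0.615, 0.460 and 0.527 across genes for replicates 1, 2 and 3, all above 0.1, so the numbers were taken to pair the libraries and a fit with the replicate block is given as well. The correlations across numbers were 0.461 (Smyd2 fl/fl replicate 2 with Smyd2 SMC-/- replicate 3) and 0.439 (replicate 3 with replicate 2). The numbers therefore set replicate 1 apart more than replicates 2 and 3 from each other. Deviations cancel out within a group, so a replicate 1 that stands apart in both groups already raises the values of replicates 2 and 3. The limit of 0.1 therefore does not show that replicates 2 and 3 are paired. The members and gene lists were chosen with earlier results of these data known. Named genes are the 10 members, Smyd2, the list genes with an adjusted p under 0.05 with or without the block (up to 8 a list), the gene of each list with the highest mean FPKM, the markers and the nearest patterns of 3 members. Ccn1 and Ccn2 were matched by NCBI Gene number. Protein motifs were planned and not analysed here.

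Depth was estimated with Python 3.11.15 and numpy 2.4.6 from the low FPKM of genes with 1 listed transcript, whose length was taken from GENCODE M21. A first estimate let each library take its own fragment length and gave 17250000 to 21200000 fragments. After these values were seen it was replaced by an estimate from a wider selection of genes, with 528 to 643 low values per library in place of 264 to 344. The new estimate used 1 length for all 6 libraries, the one with the highest pooled share of whole fragments among 6 lengths. In each of 4 selections of genes this length was 50 bases, a value added after an earlier set of lengths had been tried. It is shorter than the reads given in the methods. It is therefore a fitted value subtracted from transcript length, and not the measured fragment length of the libraries. No test uses the depth. Figures were drawn with matplotlib 3.10.9.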

Additional observations from a re-analysis of the deposited data

How the results depend on the processing

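Without a block, the counts of smooth muscle integrins called were 0 lower and 0 higher by limma (2 and 0 before adjustment at p under 0.05). The adjusted counts were also 0 and 0 with a pseudocount of 0.1, no filter, TPM, quantile normalization or each library left out in turn (0 to 0). They were the same at the study's cutoffs, taken from its methods (a fold above 2 with an adjusted p under 0.01). With the replicate block they were 1 and 1, in replicates 2 and 3 alone 4 and 1, and 3 and 1 where the block, added after seeing the data, only set replicate 1 apart. A figure caption of the study gives a stricter adjusted p than its methods, and that stricter cutoff was not used. The cutoffs were applied here to limma on log2(FPKM + 1), which understates fold changes at low levels. The study's own comparison was made by the sequencing company and gave many more genes. The methods do not name its test, so the counts here are not a repeat of the study's. Itga11 turned to -0.45 in replicates 2 and 3 alone, and Itga7 to 0.0039. Itga1 stood at 0.66 and ran from 0.36 (without Smyd2 SMC-/- replicate 3) to 0.91 with 1 library left out, with 0.39 without Smyd2 fl/fl replicate 1. Itga5 stood at -0.55 and ran from -0.79 to -0.29 (without Smyd2 fl/fl replicate 1), with -0.36 without Smyd2 SMC-/- replicate 3. With 1 library left out, log2 fold changes ran from -0.21 to 0.29 for Itga11, -0.23 to 0.10 for Itga7, -0.0265 to 0.27 for Itgav and -0.0051 to 0.0759 for Itgb1. Of these, the values with the opposite sign to that of all 6 libraries were -0.21 and -0.13 for Itga11 (without Smyd2 fl/fl or Smyd2 SMC-/- replicate 1), 0.10 for Itga7 (without Smyd2 SMC-/- replicate 1), -0.0092 and -0.0265 for Itgav (without Smyd2 fl/fl or Smyd2 SMC-/- replicate 2), and -0.0013 and -0.0051 for Itgb1 (without Smyd2 fl/fl or Smyd2 SMC-/- replicate 3). The cause was not tested. Over the 3 other lists, 2 genes were called lower and 0 higher. These counts were 4 and 8 with the replicate block, 7 and 14 with the block for replicate 1, 12 and 19 in replicates 2 and 3 alone, 0 lower at the study's cutoffs, 1 higher with a pseudocount of 0.1 and 1 with TPM, and 0 to 4 and 0 to 6 with 1 library left out. Over all genes, 152 were lower and 154 higher, against 719 and 593 with the replicate block, 1398 and 1152 with the block for replicate 1, 2156 and 1494 in replicates 2 and 3 alone, 99 and 247 with TPM, 26 and 27 at the study's cutoffs, and 16 to 313 and 16 to 373 with 1 library left out. With TPM the median of all genes went from -0.02 to 0.10 (log2), and no subunit changed direction with it, while Itgav went from 0.09 to 0.21, Itga11 from 0.11 to 0.23 and Itgb1 from 0.03 to 0.15. Quantile normalization took Itgb1 to 0.18. The shared fragment length behind the depth was chosen after seeing the data. The first estimate took an own length for each library and also a narrower selection of genes, so 2 choices changed at once. It put Smyd2 SMC-/- replicate 2 at 21200000 in place of 19050000 fragments, Smyd2 SMC-/- replicate 1 at 18400000 in place of 16700000 and Smyd2 fl/fl replicate 3 at 18450000 in place of 19400000. In the wider selection, 50 bases also had the highest share of whole fragments in each of these libraries alone.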

Other observations

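The Y-linked gene Eif2s3y stood between 0 and 0.10 FPKM and Uty between 0 and 0.02 FPKM over the 6 libraries. Xist, Ddx3y and Kdm5d were also looked for and had no entry under these symbols. The methods say that the sexes were balanced in each cohort, and the sex of the cells was not determined here.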
